A study of Mus musculus with 6 samples.

Results

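Integrins are the receptors through which a muscle cell holds on to its extracellular matrix. The genes described here are 9 integrin subunit genes of muscle cells (the alpha subunits Itga1, Itga3, Itga5, Itga6, Itga7 and Itgav and the beta subunits Itgb1, Itgb3 and Itgb5) and Itgb1bp2, which encodes melusin. They were taken by gene name from the authors' table, where all 10 of 10 were found among 55401 genes, and all 10 passed the filter that left 14668 genes for testing. Transcript levels were measured by poly(A) RNA-seq in C2C12 myotubes, cells of a mouse myoblast line kept in DMEM with 2% horse serum. The 3 control cultures received 100 pmol of GL2 siRNA, which targets firefly luciferase, for 3 days, and the 3 SENP7 cultures received 100 pmol of siRNA against the deSUMOylating protease SENP7 for the same time. The submitters call the 3 libraries of a group biological replicates. The series title ties SENP7 to sarcomere assembly and muscle atrophy, and the comparison of the groups asked which integrin transcripts differ when SENP7 is depleted.

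An integrin is a pair of 1 alpha and 1 beta subunit, both spanning the membrane, and the pairing sets which matrix protein is bound. In skeletal muscle the alpha7 beta1 pair is the main laminin receptor of the mature fibre, alpha5 beta1 binds fibronectin and is a receptor of myoblasts and young myotubes, and alphav with beta3 or beta5 binds proteins that carry the RGD sequence, such as vitronectin. Talin and kindlin bind the beta tail inside the cell and switch the receptor to its active form, and melusin is a muscle protein that binds the tail of beta1.

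Values are normalized read counts, that is the reads of a gene divided by 1 size factor per library, so that a value of 1 is close to 1 read. The libraries held 25223218 to 30865945 reads assigned to genes. Senp7 itself fell 2.02-fold, from 607 ± 46.9 to 300.3 ± 40.2 (SD, n = 3, adjusted p = 0.000428). All 10 muscle markers on the list were found in all libraries. Their summed level was 636878 to 685518 in the control and 692993 to 799394 in the SENP7 libraries. Of these markers 2, Mymk and Ckm, rose, where 10.2% of all genes tested rose, and the other 8 did not pass. The mean of Des was lower in the SENP7 libraries, at 98027 ± 5260.2 against 112839 ± 13857.5 (adjusted p = 0.242). The part of these marker differences in the integrin results was not tested. Control replicate 3 stood apart from the other controls. On the first principal component, which held 64.4% of the variance, it lay at -19.1, against -36.7 and -33.3 for control replicates 1 and 2 and 27.7 to 32.5 for the SENP7 libraries. Where leaving it out changed the call of 1 of the 10 genes, or its difference by over 1.5 times, both values are given. The adjusted p-values below come from limma, adjusted by Benjamini-Hochberg over the 14668 genes tested. Errors of means are SD and those of log2 fold changes SE, with n = 3 per group. The fold changes are log2 differences of normalized count + 1, SENP7 minus control, and the threshold was 0.05.

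Of the 10 genes, 3 fell and 1 rose after SENP7 siRNA. The largest fall was in Itgb3, which went down 2.23-fold, and Itga6 and Itgb5 fell 1.36-fold and 1.25-fold. Itga1, the collagen receptor subunit, rose 1.8-fold from a very low level. The abundant pair of the myotube, Itga7 and Itgb1, did not pass the test, nor did Itga3, Itga5, Itgav and Itgb1bp2. Among all genes tested, 20.9% passed, 10.2% higher and 10.7% lower. In 5 of the 10 genes the control and SENP7 values did not overlap, 1 higher and 4 lower, where 39.6% of all genes tested were so separated (19.3% higher, 20.4% lower). The median log2 fold change of the 10 genes was -0.21, and that of all genes tested was -0.00.

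**Figure D1:**
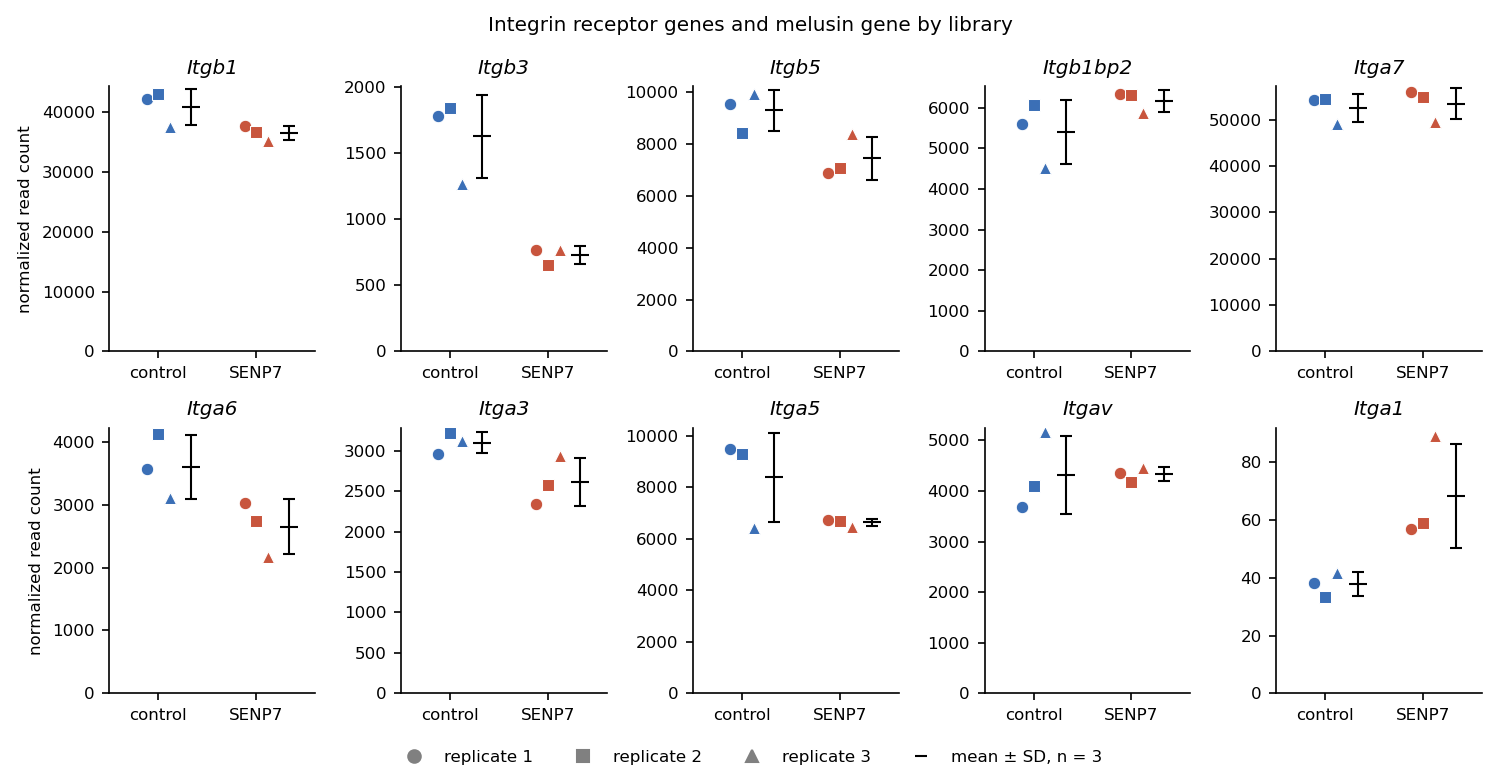
Normalized read count (y axis, from 0, own scale per gene) of the 10 genes in the control and SENP7 siRNA libraries. Each symbol is 1 library, its shape gives the replicate number, and the bars are mean ± SD with n = 3; the 3 SENP7 values of Itgb3 lie between 655 and 771, all below the lowest control at 1268.

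Integrin beta1 is the common partner of the alpha1, alpha3, alpha5, alpha6 and alpha7 subunits. Itgb1 (ENSMUSG00000025809.15, chr8:128685654-128733200, plus strand, GRCm38) had normalized counts of 42181, 43117 and 37514 in the controls, given here and below in the order of replicates 1, 2 and 3, and of 37629, 36638 and 35219 in the SENP7 libraries. Control replicate 3 fell just below SENP7 replicate 1, so that the groups overlapped. The means were 40937 ± 3002 and 36495 ± 1211, a log2 fold change of -0.16 ± 0.08 (95% interval -0.35 to 0.02, adjusted p = 0.194). Without control replicate 3 the difference was -0.23 and passed the test (adjusted p = 0.0197), where 32.1% of genes passed. The counts are per gene, so the splice forms of Itgb1, among them the beta1D form of mature striated muscle, cannot be told apart here.

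Melusin, the muscle protein on the beta1 tail, is encoded by Itgb1bp2 (ENSMUSG00000031312.5, chrX:101449088-101453541, plus strand). Its counts were 5613, 6060 and 4527 in the controls and 6352, 6304 and 5869 in the SENP7 libraries. The control values spread more widely, with replicate 3 lowest, and control replicate 2 lay above SENP7 replicate 3. A difference of 0.20 ± 0.10 (95% interval -0.03 to 0.43) did not pass the test (adjusted p = 0.195). Without control replicate 3 it was 0.08 (adjusted p = 0.368).

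Among the alpha subunits that make laminin receptors, Itga7 was by far the most abundant, and Itga6 fell. Itga7 (ENSMUSG00000025348.9, chr10:128933818-128958282, plus strand) had counts of 54112, 54382 and 48985 in the controls and 55868, 54877 and 49528 in the SENP7 libraries. The value of replicate 3 was lowest in each group. The groups overlapped, with SENP7 replicate 3 within the range of the controls and SENP7 replicates 1 and 2 above it. The log2 fold change was 0.03 ± 0.09 with a 95% interval of -0.17 to 0.22 (adjusted p = 0.868), and the difference turned to -0.02 without control replicate 3 and to -0.01 without SENP7 replicate 1.

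Alpha6 pairs with beta1 or beta4 and, like alpha7, binds laminin. Itga6 (ENSMUSG00000027111.16, chr2:71745616-71858416, plus strand) had counts of 3561, 4121 and 3104 in the controls and 3033, 2735 and 2173 in the SENP7 libraries. The highest SENP7 value, in replicate 1, was just below the lowest control value, in replicate 3. It fell from 3595 ± 509.4 to 2647 ± 436.5, a log2 fold change of -0.45 ± 0.13 (95% interval -0.75 to -0.14, adjusted p = 0.044). The call was lost with edgeR (adjusted p = 0.052, where 20.7% of all genes passed and 3 of the 10), with no filter on low values (0.131) and without control replicate 1 (0.0994), control replicate 2 (0.175), SENP7 replicate 2 (0.103) or SENP7 replicate 3 (0.122).

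Alpha3 pairs with beta1 and binds laminins as well. Itga3 (ENSMUSG00000001507.16, chr11:95044474-95076801, minus strand) had counts of 2954, 3221 and 3119 in the controls and 2337, 2579 and 2930 in the SENP7 libraries. All SENP7 values were below all control values, with SENP7 replicate 3 within reach of control replicate 1. The difference of -0.25 ± 0.08 (95% interval -0.44 to -0.06) did not pass the test (adjusted p = 0.0661), though it did with no filter on low values (adjusted p = 0.0388) and without SENP7 replicate 3 (0.0225).

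Integrin alpha5 is the subunit of the classical fibronectin receptor. Itga5 (ENSMUSG00000000555.8, chr15:103344286-103366763, minus strand) had counts of 9493, 9278 and 6403 in the controls and 6741, 6702 and 6476 in the SENP7 libraries. Control replicates 1 and 2 were well above all SENP7 libraries, and control replicate 3 was below all of them. With all libraries the difference was -0.32 ± 0.14 (95% interval -0.62 to -0.01) and did not pass (adjusted p = 0.134). Without control replicate 3 it was -0.50 and passed (adjusted p = 8.06e-05).

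The alphav subunit pairs with beta1, beta3, beta5, beta6 and beta8. Itgav (ENSMUSG00000027087.11, chr2:83724397-83806916, plus strand) had counts of 3678, 4098 and 5162 in the controls and 4359, 4180 and 4454 in the SENP7 libraries. The SENP7 values lay within the range of the controls, whose highest value was replicate 3. The difference was 0.02 ± 0.11 (95% interval -0.23 to 0.27, adjusted p = 0.92), and its sign turned without control replicate 1 (-0.09), control replicate 2 (-0.01) or SENP7 replicate 3 (-0.00). Without control replicate 3 it was 0.16 (adjusted p = 0.0893).

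Beta3 and beta5 share alphav as their partner in cells of this kind, and the transcripts of both fell. Itgb3 (ENSMUSG00000020689.4, chr11:104608000-104670476, plus strand) had counts of 1783, 1841 and 1268 in the controls and 771, 655 and 770.2 in the SENP7 libraries. Even the low control replicate 3 was above the highest SENP7 value by a wide margin. The mean fell from 1631 ± 315.3 to 732 ± 66.9, which is -1.14 ± 0.14 on the log2 scale (95% interval -1.45 to -0.83, adjusted p = 0.000786). It passed in all 16 alternative settings, with adjusted p between 1.14e-13 and 0.00782 and log2 fold changes between -1.31 and -1.04.

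Itgb5 (ENSMUSG00000022817.15, chr16:33829665-33949338, plus strand) was more abundant and fell less. Its counts were 9532, 8427 and 9913 in the controls and 6874, 7066 and 8380 in the SENP7 libraries. SENP7 replicate 3 was just below control replicate 2, the lowest control. The mean fell from 9290 ± 772.1 to 7440 ± 819.8, a log2 fold change of -0.32 ± 0.09 (95% interval -0.54 to -0.11, adjusted p = 0.04). The call was lost with quantile normalization (adjusted p = 0.0957) and without control replicate 1 (0.0998), control replicate 2 (0.0525), SENP7 replicate 1 (0.158) or SENP7 replicate 2 (0.151).

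Integrin alpha1 pairs with beta1 to form a collagen receptor that prefers collagen IV. Itga1 (ENSMUSG00000042284.10, chr13:114953096-115101964, minus strand) was the least abundant of the 10 genes, with 30 to 94 reads per library. Its counts were 38.3, 33.4 and 41.8 in the controls and 56.8, 58.8 and 89 in the SENP7 libraries. All SENP7 values were above all control values, and SENP7 replicate 3 was highest. It rose from a mean of 37.8 ± 4.24 to 68.2 ± 18.1, which is 0.81 ± 0.21 on the log2 scale (95% interval 0.33 to 1.29, adjusted p = 0.0269). The call was lost without control replicate 1 (adjusted p = 0.0617), control replicate 2 (0.105), SENP7 replicate 2 (0.0577) or SENP7 replicate 3 (0.0816).

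Promoter sequences were looked up for the 10 genes in RefSeq (GRCm38.p6), and 6 had an entry. Those with none were Itga6, Itga7, Itgb3 and Itgb1bp2. The windows of the 250 bases before the start are shown for Itga1 and Itgb5, the 2 genes with an entry that passed the test, in opposite directions. Capitals mark matches on either strand to the GC box GGGCGG and to the E-box CANNTG, the motif that myogenic factors such as MyoD and myogenin recognise. The Itga1 window spans chr13:115101965-115102214 (minus strand) and the Itgb5 window chr16:33829415-33829664 (plus strand).
Itga1: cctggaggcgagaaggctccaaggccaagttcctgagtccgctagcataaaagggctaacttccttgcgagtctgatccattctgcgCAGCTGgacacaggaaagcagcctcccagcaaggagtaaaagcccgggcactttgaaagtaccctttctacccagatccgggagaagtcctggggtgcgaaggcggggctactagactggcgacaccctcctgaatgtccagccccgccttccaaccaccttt
Itgb5: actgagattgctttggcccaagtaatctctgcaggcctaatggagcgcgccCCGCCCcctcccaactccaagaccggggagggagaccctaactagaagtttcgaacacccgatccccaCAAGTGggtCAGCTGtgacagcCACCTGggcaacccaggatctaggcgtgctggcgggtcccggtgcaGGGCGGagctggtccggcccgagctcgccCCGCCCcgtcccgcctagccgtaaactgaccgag
The Itga1 window held 0 GC boxes and 1 E-box, and the Itgb5 window held 3 GC boxes and 3 E-boxes. Of 32851 promoter windows of the same length, 32.7% held a GC box and 66.2% an E-box, on either strand. The GC content was 57.6% for Itga1 and 65.2% for Itgb5, and the median of all windows was 52.4%. No CCAAT box (CCAAT, 33.8% of windows), TATA box (TATAAA, 12.4%) or AP-1 motif (TGANTCA, 6.75%) was found in either window. A match of letters describes the window and does not show that a factor binds there.

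The authors' deposited table gave the same directions for the 10 genes. Of these, 4 in the authors' deposited table had an adjusted p below 0.05, where 9.26% of its 27493 genes did. That share includes genes too low for the filter used here, which all 10 genes passed. Of the 14668 genes that passed the filter, 20.9% were called by limma. The 4 genes were Itgb3 (log2 fold change -1.05, adjusted p = 1.52e-13), Itga6 (-0.41, 0.0167), Itgb5 (-0.31, 0.0201) and Itga1 (0.60, 0.045) in the authors' deposited table.

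**Figure D2:**
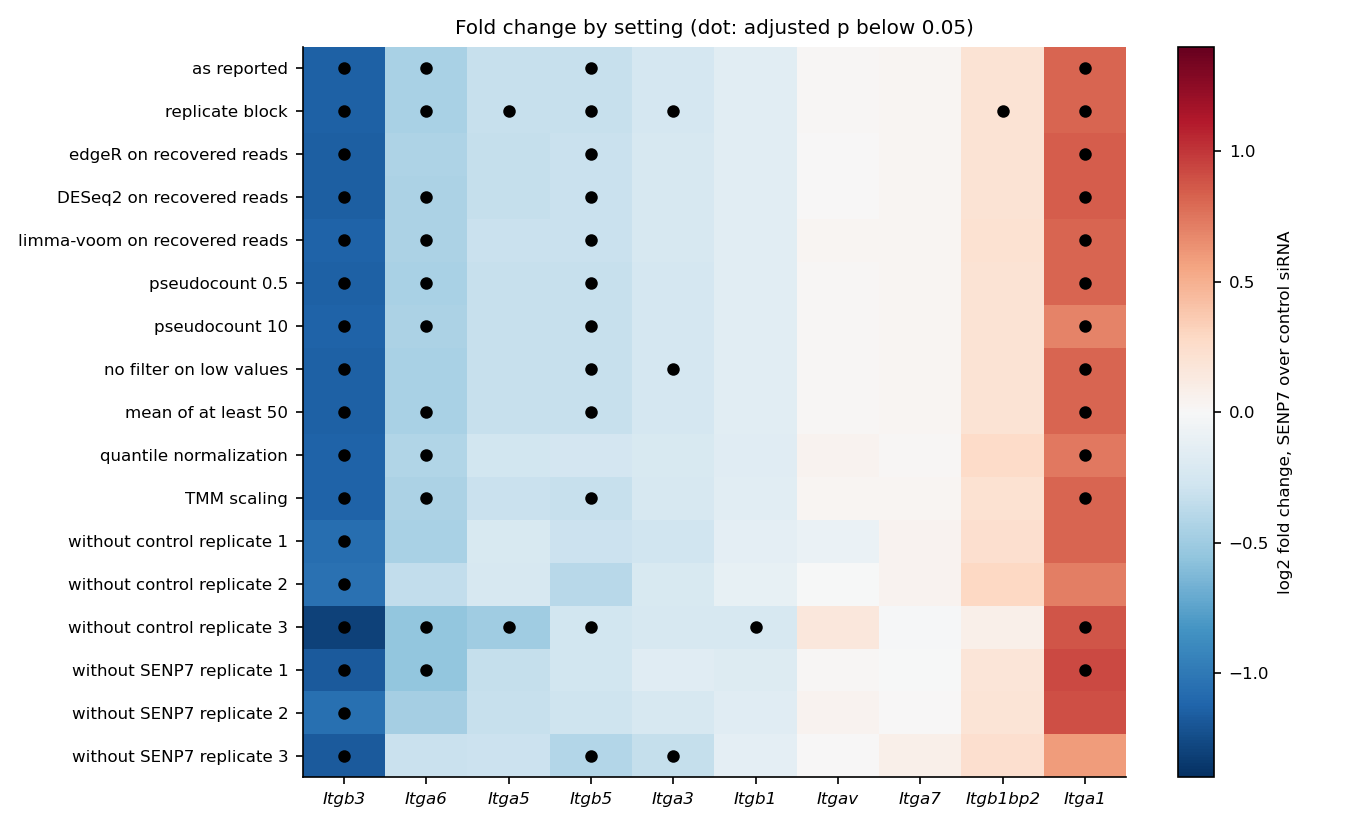
Log2 fold change, SENP7 over control siRNA (colour, blue lower and red higher), of the 10 genes (columns) in the fit as reported and in 16 alternative settings (rows); a dot marks an adjusted p below 0.05. Itgb3 carries a dot in every row, and the row without control replicate 3 carries the dots of Itga5 and Itgb1, which lack one in the fit as reported.

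The displaced control library bears on these genes unevenly. On the log2 scale control replicate 3 differed from the mean of control replicates 1 and 2 by -0.55 in Itga5, -0.51 in Itgb3, -0.37 in Itgb1bp2 and -0.30 in Itga6. It was higher by 0.41 in Itgav and by 0.22 in Itga1. In Itga3 it differed by 0.02. Without it, 6 of the 10 genes passed the test, where 32.1% of all genes tested passed, against 20.9% with all libraries. Leaving out any other library lowered the number for the 10 genes. It was 1 without control replicate 1, control replicate 2 or SENP7 replicate 2 and 3 without SENP7 replicate 1 or SENP7 replicate 3. The calls over all genes fell too, from 3062 to between 1504 and 2378.

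Levels of different genes were compared per kilobase of exon, as normalized counts divided by the length of all exons of the gene. On this scale Itgb1 was highest, at 10031 ± 735.5 in the controls and 8943 ± 296.8 in the SENP7 libraries. Itga7 followed with 6487 ± 375.8 and 6602 ± 421.5, and Itgb1bp2 with 3002 ± 438.3 and 3432 ± 148.1. The means of these 3 genes of the beta1 receptor and its tail protein stood above those of all other genes listed. Itgb5 came next with 2615 ± 217.3 in the controls and 2094 ± 230.7 in the SENP7 libraries. Then came Itga5, with 1701 ± 349.7 and 1346 ± 29.1. Itga3 (543 ± 23.6 and 458 ± 52.2), Itgav (401 ± 71.2 and 403 ± 13) and Itga6 (393 ± 55.7 and 289.6 ± 47.7) were close to each other. Itgb3 had 276 ± 53.4 and 124 ± 11.3, and Itga1 had 2.03 ± 0.228 and 3.67 ± 0.971. Neighbours in this order whose libraries overlapped were Itgb1bp2 with Itgb5 and Itgav with Itga6 in the controls, and Itga3 with Itgav in the SENP7 libraries. The order depends on the length chosen: per kilobase of the longest transcript Itga7 (13058 in the controls) stood above Itgb1 (10731). The exons of Itga7 together span 8092 bases and its longest transcript 4020. On the same scale Itga6 (834 in the controls) stood above Itga3 (637) and Itgav (611).

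**Figure D3:**
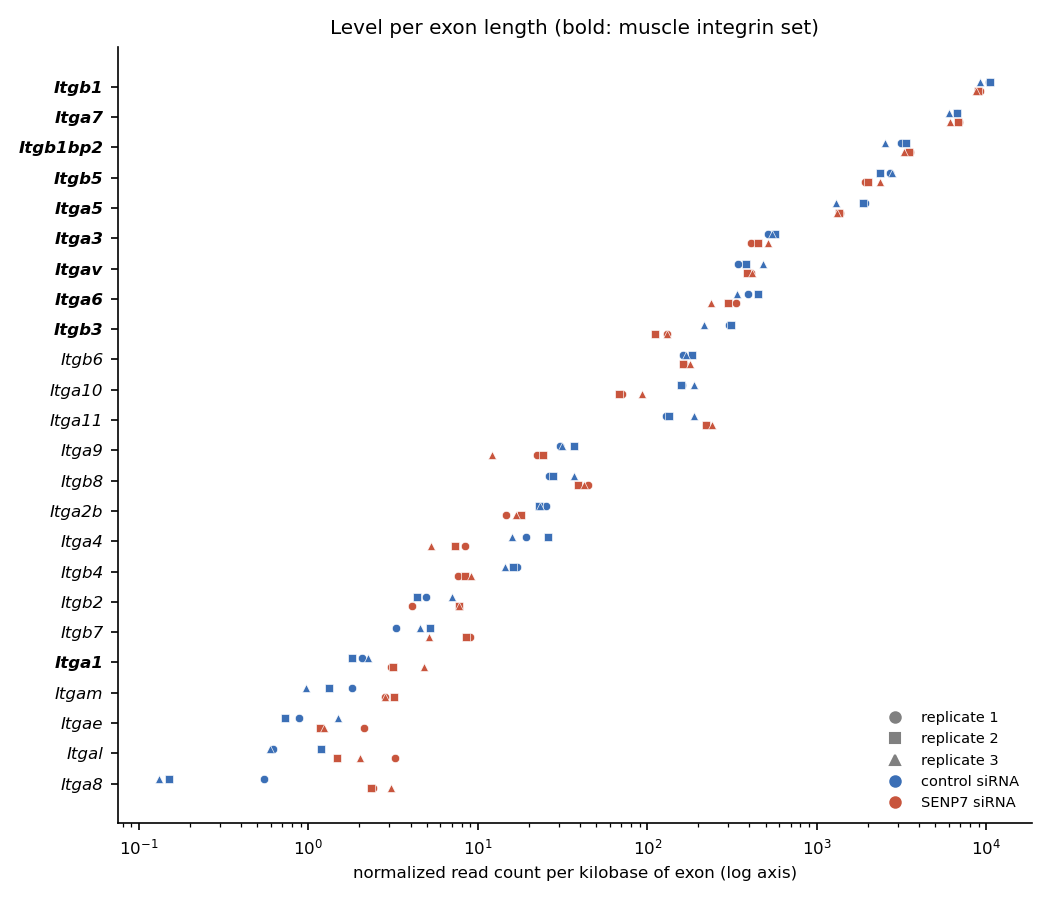
Normalized read count per kilobase of exon (x axis, log scale) of the 9 muscle integrin subunit genes and melusin (bold) and of other integrin subunit genes; each symbol is 1 library, blue for control and red for SENP7 siRNA, with the replicate number given by shape. Itgb1 and Itga7 lie near the top end, Itga1 lies near the bottom end, and Itgb3 drops below Itgb6 and Itga11 in the SENP7 libraries.

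Because subunits work in pairs, 4 ratios of levels per kilobase of exon were compared between the groups. The test was an exact two-sided permutation test over the libraries, whose smallest possible p with 3 against 3 is 0.1, so that no ratio could pass the threshold. The ratio of Itgb3 to Itgb5, partners of alphav, was 0.113, 0.132 and 0.077 in the controls and 0.0675, 0.0558 and 0.0553 in the SENP7 libraries. All SENP7 ratios were lower, by 0.82 in the mean of log2 (exact p = 0.1, adjusted over the 4 ratios 0.133). For Itga6 over Itga7, both laminin-binding, the ratios were 0.0582, 0.0671 and 0.0561 against 0.048, 0.0441 and 0.0388. These did not overlap either, with a log2 difference of -0.47 (exact p = 0.1, adjusted 0.133).

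The ratio of Itga7 to Itga5 sets the laminin receptor of fibres against the fibronectin receptor of myoblasts. It was 3.48, 3.57 and 4.66 in the controls and 5.05, 4.99 and 4.66 in the SENP7 libraries, so that replicates 3 of both groups met at the same value. The log2 difference was 0.34 (exact p = 0.2, adjusted 0.2). Itgb1 over the sum of the 6 alpha genes was 1.05, 1.06 and 1.05 in the controls and 0.979, 0.967 and 1 in the SENP7 libraries. This level depends on the length chosen, and per kilobase of the longest transcript the ratio was 0.629, 0.634 and 0.625 in the controls and 0.572, 0.567 and 0.594 in the SENP7 libraries. On either scale the groups did not overlap, with a log2 difference per kilobase of exon of -0.10 (exact p = 0.1, adjusted 0.133). Of the summed alpha level, Itga7 made up 68.1% ± 1.14 in the controls and 72.5% ± 1.18 in the SENP7 libraries. Itga5 made up 17.7% ± 2.49 and 14.8% ± 0.402, and Itga6 4.12% ± 0.34 and 3.17% ± 0.382. Itga3 and Itgav each made up 4.26% to 5.72% in the group means, and Itga1 0.0215% and 0.0407%.

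By the similarity of their log2 values over the 6 libraries, the genes closest to Itgb3 were Plet1 (Pearson r = 0.9986), Add2 (0.9985) and Vps4b (0.9984). Those closest to Itga1 were Got2 (r = 0.9909), Fkbp9 (0.9901) and Abcc8 (0.9884). The 6 points share the split into groups and the displaced control, and the values describe these libraries alone.

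The other integrin subunits were measured next to the muscle set, 18 genes of which 12 passed the filter. Of these 12, 4 rose, 5 fell and 3 did not pass, where 10.2% of all genes tested rose and 10.7% fell. This count includes Itga8 and Itgam, which passed the filter through the SENP7 libraries alone. The median log2 fold change was 0.10 over the 12 genes and -0.66 over the 8 with a mean of at least 50, of which 2 rose and 5 fell. Without control replicate 2, 4 of the 12 passed, where 1610 of 14480 genes did. Without SENP7 replicate 1, Itga8 and Itgam did not pass the filter, and 4 of the 10 genes tested passed. Over all genes, 1554 of 14437 passed in that fit. The falls of smallest adjusted p were in Itga10, Itga4 and Itgb4. Itga10, a collagen receptor subunit known from cartilage, had counts of 832, 821 and 974 in the controls and 366, 351 and 480.3 in the SENP7 libraries. It fell by 1.14 ± 0.12 on the log2 scale (adjusted p = 0.000496), as much as Itgb3, and Gm42957, which shares 33.5% of its exon length on the same strand, had counts of at most 6.68. Itga4, the subunit that binds VCAM1 and fibronectin, had counts of 267, 362 and 221 in the controls and 117, 103 and 73.9 in the SENP7 libraries, a fall of 1.52 ± 0.21 (adjusted p = 0.00166). No values overlapped in either gene.

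Itgb4, the partner of alpha6 in hemidesmosomes, went from 119, 112 and 101 to 53.2, 58.8 and 63.5, which is -0.91 ± 0.14 on the log2 scale (adjusted p = 0.00275). The calls of Itga10, Itga4 and Itgb4 held in all 16 alternative settings. Of 6 epithelial markers, Krt14 fell, from 594 ± 59.5 to 304 ± 26.4 (adjusted p = 0.000382), and Cdh1, at 197 ± 3.66 and 209 ± 22.7, did not pass (adjusted p = 0.653). Krt8 (5.6 and 12.5 in the group means) and Krt18 (0 and 1.94) were near the limit of detection, and Epcam and Krt5 were at 0 in all libraries. The summed level of the 6 was 742 to 857 in the controls and 524 to 529 in the SENP7 libraries, and its part in the results of Itgb4 and Itga6 was not tested. In these bulk libraries fewer cells of a type and less RNA per cell cannot be told apart.

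Itga9 (log2 fold change -0.80 ± 0.24, adjusted p = 0.0434) and Itga2b, the platelet subunit (-0.53 ± 0.13, adjusted p = 0.0212), fell with less certainty. The call of Itga9 was lost with no filter on low values (0.114) and without control replicate 1 (0.0844), 2 (0.166) or 3 (0.0603) or SENP7 replicate 1 (0.0677). That of Itga2b was lost without control replicate 1 (0.0645), control replicate 2 (0.0652) or SENP7 replicate 1 (0.0955).

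Itga11, a receptor subunit for fibrillar collagens, rose from 656, 683 and 967 in the controls to 1130, 1138 and 1237, a log2 fold change of 0.62 ± 0.13 (adjusted p = 0.0116). Control replicate 3 was the highest control, and the call was lost without control replicate 2 (adjusted p = 0.0659). With 150 ± 33.5 normalized counts per kilobase in the controls and 228 ± 11.6 in the SENP7 libraries, it stood far above Itga1, the other collagen receptor subunit that rose. Itgb8, an alphav partner that binds latent TGF-beta, had counts of 292, 305 and 410.5 in the controls and 495, 432 and 469 in the SENP7 libraries. Its rise of 0.48 ± 0.13 (adjusted p = 0.0299) was lost without control replicate 1 (0.0895) or 2 (0.126) and without SENP7 replicate 1 (0.114), 2 (0.0631) or 3 (0.0848). So among the partners of alphav, Itgb3 and Itgb5 were called lower and Itgb8 higher. The calls of Itgb5 and Itgb8 were each lost in 5 of 16 alternative settings, and that of Itgb3 in none. Itgb1, also a partner, had a log2 difference of -0.16 and did not pass (adjusted p = 0.194). Itgb6 had a log2 difference of -0.02 (95% interval -0.18 to 0.14, adjusted p = 0.87). The sign of Itgb6 turned to 0.03 without control replicate 2.

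Itga8 and Itgam were near the limit of detection, and their calls are given as descriptions. Itga8 had counts of 4.03, 1.11 and 0.973 in the controls and 17.7, 17.1 and 22.7 in the SENP7 libraries. Itgam, the subunit of a leukocyte receptor, had 9.07, 6.68 and 4.86 against 14.2, 16 and 14.2. Gm49368, which shares 68.7% of the exon length of Itgam on the same strand, had counts of at most 0.973. Whether the shared stretch altered the count of Itgam was not tested. Among the other leukocyte markers listed, Ptprc was at 1.11 or below in every library and Adgre1 at 0, and Csf1r had 3.21 to 15.1. Cd68 had 37.3 to 56.7 and did not pass (adjusted p = 0.951), and Cd14 fell from 126 ± 11.5 to 90.3 ± 12.8 (adjusted p = 0.0474). Their part in the value of Itgam was not tested. Itgb2 (0.22 ± 0.32, adjusted p = 0.675) and Itgb7 (0.73 ± 0.31, adjusted p = 0.129) did not pass.

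**Figure D4:**
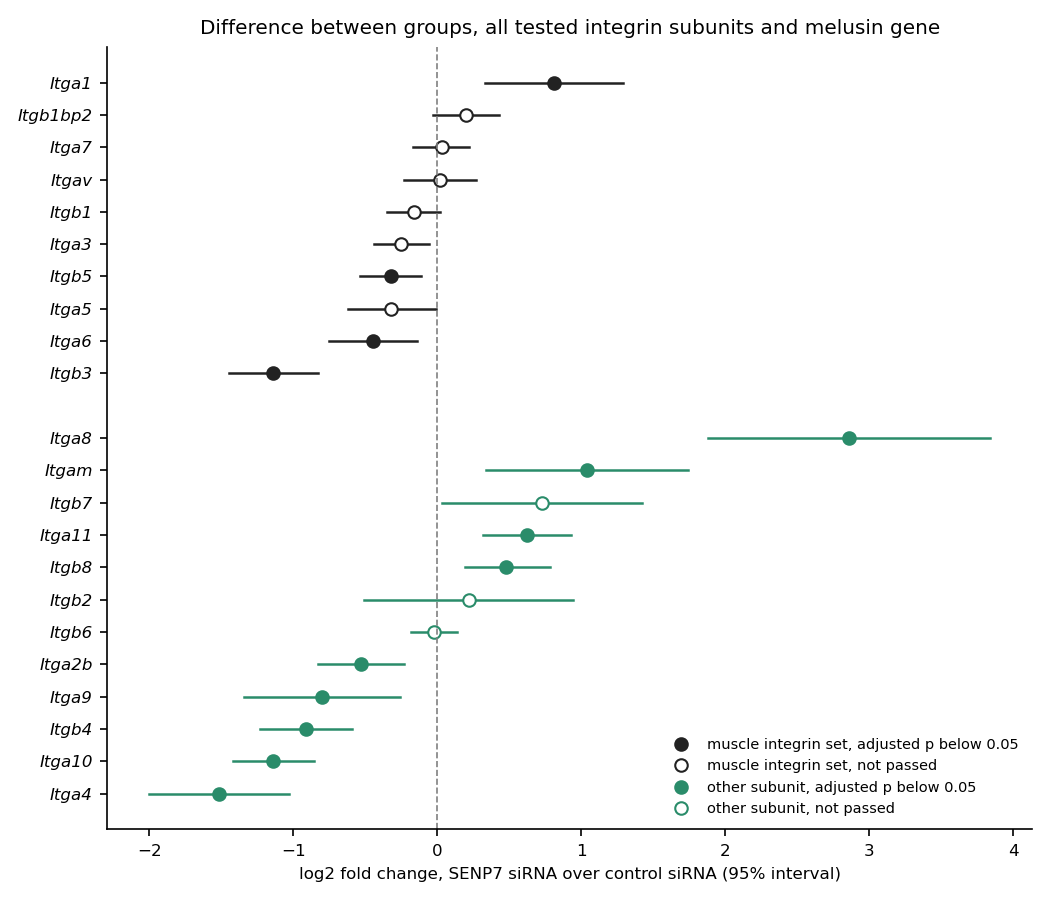
Log2 fold change, SENP7 over control siRNA (x axis), with 95% interval, of the 10 genes of the muscle set (black) and the 12 other integrin subunit genes that passed the filter (green); filled points had an adjusted p below 0.05. Itgb3 and Itga10 both lie at -1.14, and the intervals of Itga7 and Itgav span 0.

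Genes that encode matrix ligands of integrins were examined as a list of 33, of which 31 were tested. Of these, 10 rose, 7 fell and 14 did not pass, where 10.2% of all genes tested rose and 10.7% fell. The median log2 fold change of the list was 0.14. Without control replicate 2 or SENP7 replicate 2, 11 and 10 of the ligand genes passed, where 1610 of 14480 and 1504 of 14443 genes did. Split by kind of ligand, a grouping made after the values were seen, 4 of 8 collagen genes rose and 0 fell (median 0.46). Among laminin and nidogen genes 6 of 12 rose and 2 fell (median 0.24). Of 11 genes for fibronectin and other non-collagen ligands, 0 rose and 5 fell (median -0.34). The summed level of 6 fibroblast markers was 9941 to 12160 in the controls and 10799 to 13800 in the SENP7 libraries, and that of 6 endothelial markers 10 to 17.5 and 21.8 to 25.7. All 6 endothelial markers had a mean below 10 over the libraries. Only Tek passed the filter, through the SENP7 libraries alone, with group means of 5.44 and 14.2. Most of the fibroblast sum was Pdgfrb, which did not pass (adjusted p = 0.369). Dcn, which encodes the collagen-binding proteoglycan decorin, rose from 991 ± 335.5 to 1984 ± 195.3 (adjusted p = 0.00571), Ly6a fell from 2108 ± 190.3 to 1338 ± 94.7 (adjusted p = 0.000981), and Pdgfra did not pass (adjusted p = 0.591). Lum and Thy1 were too low to be tested. The part of these markers in the ligand results was not tested.

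The fall was largest in Spp1, which encodes osteopontin, an RGD ligand of alphav beta3. Its counts were 27806, 22598 and 17433 in the controls and 7831, 7927 and 10487 in the SENP7 libraries, a log2 fold change of -1.36 ± 0.17 (adjusted p = 0.000941). Tnc, which encodes tenascin C, a matrix protein bound by several integrins, had counts of 33639, 32904 and 21430 in the controls and 15924, 13358 and 12701 in the SENP7 libraries. It fell by 1.04 ± 0.17 (adjusted p = 0.00318), a call lost with no filter on low values (0.065). Fn1, the fibronectin gene, is named here after its values were seen. It had counts of 261843, 275680 and 280793 in the controls and 168157, 156968 and 203638 in the SENP7 libraries. The log2 fold change of Fn1 was -0.64 ± 0.12 (adjusted p = 0.0056, or 0.0637 with quantile normalization), beside the value of -0.32 for Itga5, its receptor subunit, which did not pass.

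Basement membrane genes differed in direction, and Col4a1 and Lama4 rose. Col4a1, a chain of collagen IV, went from 11361, 10839 and 9837 in the controls to 15333, 15294 and 14237, a log2 fold change of 0.49 ± 0.08 (adjusted p = 0.00259). Lama4, a laminin alpha chain that is low in these cells, went from 73.6, 66.8 and 84.6 to 156, 143 and 147, a log2 fold change of 0.98 ± 0.13 (adjusted p = 0.00143). Neither gene had overlapping groups. Lama2, the laminin alpha chain of the muscle basement membrane and a ligand of alpha7 beta1, is also named after its values were seen. It had 2842, 3234 and 3890 in the controls and 4229, 3942 and 4455 in the SENP7 libraries. Its log2 fold change was 0.35 ± 0.11 (adjusted p = 0.0467), and the call was lost with the filter set to a mean of 50 (0.0505) and without any library except control replicate 3, with adjusted p up to 0.156 without control replicate 2. The laminin genes Lamb3 and Lamc3, named after their values were seen, fell. Lamb3 went from 4756, 4474 and 2468 to 1746, 1521 and 1352 (-1.29 ± 0.22, adjusted p = 0.00412), and Lamc3 fell by 0.75 ± 0.18 (adjusted p = 0.0168). Col4a2, Lama5, Lamb1 and Lamb2 did not pass.

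**Figure D5:**
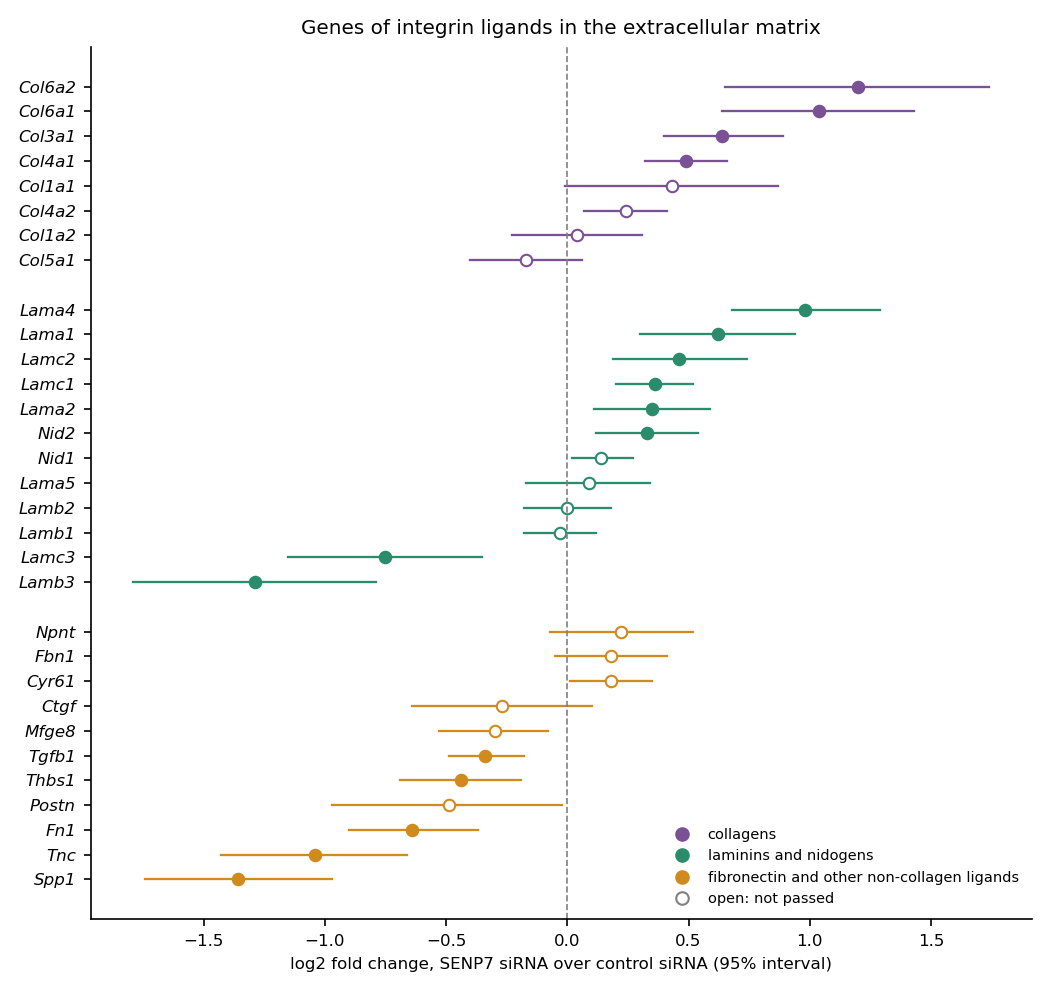
Log2 fold change, SENP7 over control siRNA (x axis), with 95% interval, of the genes for integrin ligands in the matrix, grouped as collagens (purple), laminins and nidogens (green) and fibronectin and other ligands (orange); open points did not pass the test. Filled collagen points all lie to the right of 0, and filled points among the other non-collagen ligands all lie to the left, with Spp1 at -1.36.

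Inside the cell, the list of integrin activators and plaque proteins held 36 genes, of which 34 were tested. Of these, 1 rose, 9 fell and 24 did not pass (median -0.13), where 10.2% of all genes tested rose and 10.7% fell. Without control replicate 3 the count was 3 higher and 16 lower, where 32.1% of all genes tested passed. Without control replicate 2 or SENP7 replicate 1 or 2 it was 0 higher and 5, 6 and 6 lower. Over all genes, 1610 of 14480, 1554 of 14437 and 1504 of 14443 passed in these fits. Src, the kinase that signals from clustered integrins, went from 1368, 1392 and 1382 in the controls to 1014, 970.3 and 948 (log2 fold change -0.50 ± 0.06, adjusted p = 0.000588). Parvb, the plaque protein beta-parvin, went from 4467, 4920 and 5008 to 3414, 3214 and 3355 (-0.53 ± 0.06, adjusted p = 0.000794). Ptk2b, the focal adhesion kinase relative PYK2, fell by 0.40 ± 0.07 (adjusted p = 0.00408). Src, Parvb and Ptk2b kept their calls in the 16 alternative settings. Talin 1, which activates beta1 and ties it to actin, is named after its values were seen and did not pass, with a log2 difference of -0.08 ± 0.08 for Tln1 (95% interval -0.26 to 0.10, adjusted p = 0.511).

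Among 8 genes for proteins that restrain integrins, 0 rose and 2 fell (median -0.10), against 10.2% and 10.7% of all genes tested. Dok1, which competes with talin for the beta tail, fell by 0.46 ± 0.07 (adjusted p = 0.00193). Rap1gap, which turns off the activating GTPase RAP1, fell by 0.69 ± 0.18 (adjusted p = 0.0264), with a call that needed control replicate 2 (0.106 without it), SENP7 replicate 1 (0.0931) and SENP7 replicate 2 (0.0907). The other 2 of smallest adjusted p, Flna (-0.25, adjusted p = 0.0899) and Sharpin (-0.12, 0.192), did not pass. Flna passed with DESeq2 (0.0262), no filter on low values (0.0164) and quantile normalization (0.0333), and without control replicate 3 (0.0021). With any 1 of the libraries that the call of Rap1gap needed left out, 1 of the 8 genes passed. Over all genes, 1504 to 1610 passed in these fits, against 3062 with all libraries.

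Of 19 genes for membrane proteins that lie beside integrins, 1 rose, 6 fell and 12 did not pass (median -0.14). Among all genes tested, 10.2% rose and 10.7% fell. The muscle caveolin Cav3 went from 3406, 3545 and 2893 in the controls to 1514, 1476 and 1347 in the SENP7 libraries (log2 fold change -1.18 ± 0.09, adjusted p = 6.25e-05), a change of about the size of that of Itgb3. Sdc3, a syndecan of muscle satellite cells, fell by 0.70 ± 0.09 (adjusted p = 0.00105) and Bcam, a laminin receptor of the immunoglobulin family, by 0.72 ± 0.10 (adjusted p = 0.00125). Cd9, a tetraspanin that associates with beta1 integrins, fell by 0.48 ± 0.07 (adjusted p = 0.00194). These 4 calls held in all 16 alternative settings. The gene that rose was Dag1, named after its values were seen, which encodes dystroglycan, the other main laminin receptor of the muscle fibre. It went from 20830, 22811 and 22522 to 27274, 26496 and 28930 (0.32 ± 0.07, adjusted p = 0.0157), beside the value of 0.03 for Itga7, and its call was lost without control replicate 2 (0.0518) or any SENP7 library (0.0517 to 0.0688).

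Melusin works as a cochaperone of HSP90, and 7 genes for its chaperone partners were tested. Stip1, an HSP90 cochaperone, rose by 0.25 ± 0.06 on the log2 scale (adjusted p = 0.022), and Iqgap1, a scaffold protein that binds melusin, fell by 0.31 ± 0.07 (adjusted p = 0.0108). The other 5 did not pass, among them Hsp90aa1 (-0.26, adjusted p = 0.0779) and Ptges3 (0.17, adjusted p = 0.173). Of all genes tested, 20.9% passed. Leaving out control replicate 2, SENP7 replicate 1 or SENP7 replicate 2 ended both calls, with adjusted p in that order of 0.0962, 0.108 and 0.11 for Stip1 and 0.0596, 0.056 and 0.0689 for Iqgap1. Hsp90aa1 passed with DESeq2 (0.0372), no filter on low values (0.026) and without control replicate 3 (0.00219).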

How the data were processed

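Polyadenylated RNA of 6 C2C12 libraries, 3 per group, was sequenced with a directional kit in paired reads, per the labels' protocols. Per the submitters' processing notes, reads were handled with bcl2fastq and Trim Galore 0.6.4. The same notes name STAR 2.6.1d, featureCounts 1.6.4, DESeq2 and the build GRCm38.p6. The strand setting and annotation release were not given in the sources used here, so a gene and its antisense partner could share reads.

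The deposited signal was a normalized count per gene and library. From the values, it was the read count divided by 1 factor per library, and within 0.1 read 100% of the values above 0 came out as whole reads. The authors' table, per the file headers, also held a log2 fold change with its standard error, a test score and a p-value with its adjusted value. In replicate order the controls held 27672491, 25223218 and 27763538 recovered reads, and the SENP7 libraries 30865945, 25434880 and 28488660. Read number limits the precision of low genes.

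limma 3.58.1 (R 4.3.3) was fitted (trend, robust) to log2(normalized count + 1) for genes with at least 10 in at least 3 libraries. Small counts make this scale understate a change. The procedure, with two-sided tests, was tested on simulated data. Alternatives were edgeR 4.0.16 (3030 genes called, 20.7%), DESeq2 1.42.0 and limma-voom on recovered reads, other pseudocounts, filters and scalings, the replicate number as a block, and each library left out. Exon lengths and overlaps were read from the authors' table, which gave the exon coordinates of each gene. Lengths of the longest transcripts were read from GENCODE M21, which shared 54349 of 55401 gene identifiers. Another 792, Itga6 among them, were matched without the version number.

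The genes and lists were chosen with earlier results of these data known. Named are the 10 genes, Senp7, the other integrin subunits that passed the filter, up to 4 genes per list with the smallest adjusted p, and the 3 protein-coding genes most correlated with the member of smallest adjusted p in each direction. Fn1, Lama2, Lama5, Lamb1, Lamb2, Lamb3, Lamc3, Col4a2, Tln1, Dag1 and the marker genes of muscle and other cell types are named outside that rule. The result of 1 gene that the rule names is not reported here. The summed marker levels were 6126 to 8069 in the controls and 5860 to 7132 in the SENP7 libraries for undifferentiated or cycling cells. Of the 6 genes in that sum, Pax7 rose from 532 ± 19.9 to 750.6 ± 126 (adjusted p = 0.0159). The other 5 did not pass, where 20.9% of all genes tested passed. For leukocytes the summed levels were 182 to 199 and 147 to 174, and for glia 5253 to 6053 and 4638 to 5531.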

Additional observations from a re-analysis of the deposited data

How the results depend on the processing

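The 10 genes gave 4 calls as reported. The number was 3 with edgeR and with quantile normalization and 4 with DESeq2, limma-voom, a pseudocount of 0.5 or 10, no filter, a mean of at least 50 and TMM scaling. Over all single-gene results, 646 of the alternative values kept direction and side of the threshold, 17 newly passed, 55 no longer passed and 8 changed sign. The sign changes were in Itga7 (-0.02 to 0.08 with 1 library left out), Itgav (-0.09 to 0.16) and Itgb6 (-0.07 to 0.03, and 0.00 without SENP7 replicate 1 or 2). The causes were not tested.

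With 1 library left out at a time, 1504 to 4657 genes were called. The ranges were 1 to 6 for the 10 genes, 4 to 7 for the other subunits, 10 to 24 for matrix ligands and 5 to 19 for activators and plaque proteins. They were 1 to 3 for restraining proteins, 5 to 8 for membrane partners and 0 to 3 for melusin's partners. The log2 ratio differences ranged from 0.26 to 0.48 (Itga7 over Itga5), -0.54 to -0.39 (Itga6 over Itga7), -1.04 to -0.65 (Itgb3 over Itgb5) and -0.11 to -0.09 (Itgb1 over the alpha sum). Control alpha shares ranged from 0.0194% to 0.0233% (Itga1), 5.44% to 5.95% (Itga3), 16.8% to 19.2% (Itga5), 3.92% to 4.23% (Itga6), 67.5% to 68.6% (Itga7) and 3.64% to 4.66% (Itgav). Per longest transcript, the shares were 3.75% (Itga3), 11.1% (Itga5), 4.88% (Itga6) and 76.6% (Itga7), and the Itgb1 difference was -0.12.

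Replicate numbers were not taken to pair the samples. Same-numbered samples correlated at 0.13, 0.062 and 0.251 in their deviations from the group means, and control replicate 1 correlated best with SENP7 replicate 2 (0.141). With the replicate block 4175 genes passed, 7 of the 10 genes passed (2 higher, 5 lower, the 3 added being Itga3, Itga5 and Itgb1bp2, with adjusted p of 0.0127, 0.0488 and 0.046), and 4 of melusin's partners did. Flna (0.0348) and Hsp90aa1 (0.0128) passed with the block too.

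Depth limits Itga1, Itga8 and Itgam, which had at most 94, 24 and 16 reads in a library. Itgam also shares 68.7% of its exon length with Gm49368 on the same strand.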
